A study of Mus musculus with 10 samples.

Results

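The collagen chains are the genes that encode the alpha chains of the collagen triple helix. They were taken as the protein coding genes of GENCODE mouse release M21 (GRCm38) whose symbol is Col, a type number, the letter a and a chain number. The annotation holds 44 such genes, and 42 of them are among the 18381 genes of the counts table. The remaining pair, Col4a3 and Col10a1, is not listed there. All samples are first lower molars of wild type C57BL/6JOlaHsd mouse embryos at embryonic day 14 (E14), when the tooth germ is a small cap of epithelium around a condensed mesenchyme. There are 5 embryos, with the numbers 1, 2, 3, 4 and 6, and the treatments were split between the left and right tooth of each, balanced for side. The IGF1 group (5 teeth) was held for 6 h in hanging drop culture with mouse recombinant insulin-like growth factor 1 at 750 ng per ml, and the control group (5 teeth) was cultured for as long with an equal volume of the vehicle, 1x PBS with 0.1% BSA. Both groups therefore share the culture itself, and no tooth that had not been cultured was analysed here. RNA was sequenced from each tooth separately, so the replicate is the embryo. Whether the embryos came from a single litter is not given in the sources used here.

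Collagens are secreted as trimers of alpha chains that wind around each other after prolines have been hydroxylated in the endoplasmic reticulum. Fibrillar chains (types I, II, III, V, XI, XXIV and XXVII) build the banded fibrils of mesenchyme, bone and cartilage. Type IV chains form the network of the basement membrane, the sheet between dental epithelium and mesenchyme, where types VII, XV and XVIII are also found. The other chains include those that decorate fibrils (FACIT), the beaded filaments of type VI, short network chains (type VIII) and membrane-spanning chains (types XIII, XVII, XXIII and XXV). Of the listed chains, 11 are fibrillar, 8 belong to the basement membrane and 23 to the other types.

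Depth was lowest in both teeth of embryo 1. The control teeth held between 2845773 and 8403151 counts each, and the IGF1 teeth between 3456634 and 8763113. Values below are CPM (each gene's counts relative to the library's total, scaled to 1000000 counts with edgeR's TMM factors), and fold changes compare IGF1 with control in a fit that holds the embryo fixed. A gene was called at a Benjamini-Hochberg adjusted p under 0.05 over all 14504 genes tested with edgeR's quasi-likelihood test. In that fit 1666 genes, or 11.5%, were called in either direction. Higher calls made up 6.72% and lower calls 4.76% of the genes tested. The median log2 fold change of all genes was close to 0 (-0.0038). Of the 42 chains, 39 passed the filter on low counts. Col4a4 (24 counts over all teeth), Col9a1 (15) and Col19a1 (24) did not, so the main fit gives no result for them. In a fit with no filter on low counts all 42 chains were tested, and Col4a4, Col9a1 and Col19a1 were not called. Counts this low limit what such a test can show.

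Collagen messages took 1.04% to 1.36% of all counts in the control teeth and 0.974% to 1.38% in the IGF1 teeth. Per kilobase of exon, the scale on which levels of different genes were compared, Col3a1 was the most abundant chain in control teeth (228 CPM per kb), followed by Col6a3 (162), Col1a1 (147), Col6a1 (107) and Col1a2 (95.05). Col3a1 encodes the homotrimeric type III chain of soft mesenchyme, Col1a1 and Col1a2 the type I chains, and Col6a1 and Col6a3 chains of type VI microfibrils. Col6a2, Col12a1, Col5a1, Col5a2, Col4a1 and Col4a2 came next, between 42.2 and 77.6 CPM per kb. The fibrillar chains held 48.3% ± 2.9 (SD, n = 5) of the summed collagen level per kb in control teeth and 49.1% ± 3.2 with IGF1. The basement membrane chains held 12.3% ± 1.6 and 12.1% ± 1.7, and the other chains 39.4% ± 2.2 and 38.9% ± 1.9. For each class the means of both groups lie within an SD of each other.

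The chains of mature cartilage were low. Col2a1, the main fibrillar chain of cartilage, stood at 25.9 ± 8.9 CPM in control teeth, and Col9a2 and Col9a3 at 4.34 ± 2.0 and 4.21 ± 1.5 CPM. Col9a1 had 11 counts in all control teeth together and 4 in all IGF1 teeth. Of the cartilage markers, Matn1, Matn3, Snorc and Comp are not listed, and the summed level of the 5 that are listed was 36.4 to 68.2 CPM in control and 54.6 to 79.8 CPM in IGF1 teeth. Col9a3 overlaps Tcfl5 in the annotation and Col18a1 overlaps Slc19a1, and strand use in counting is not stated, so some of their reads may belong to the neighbour.

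**Figure D1:**
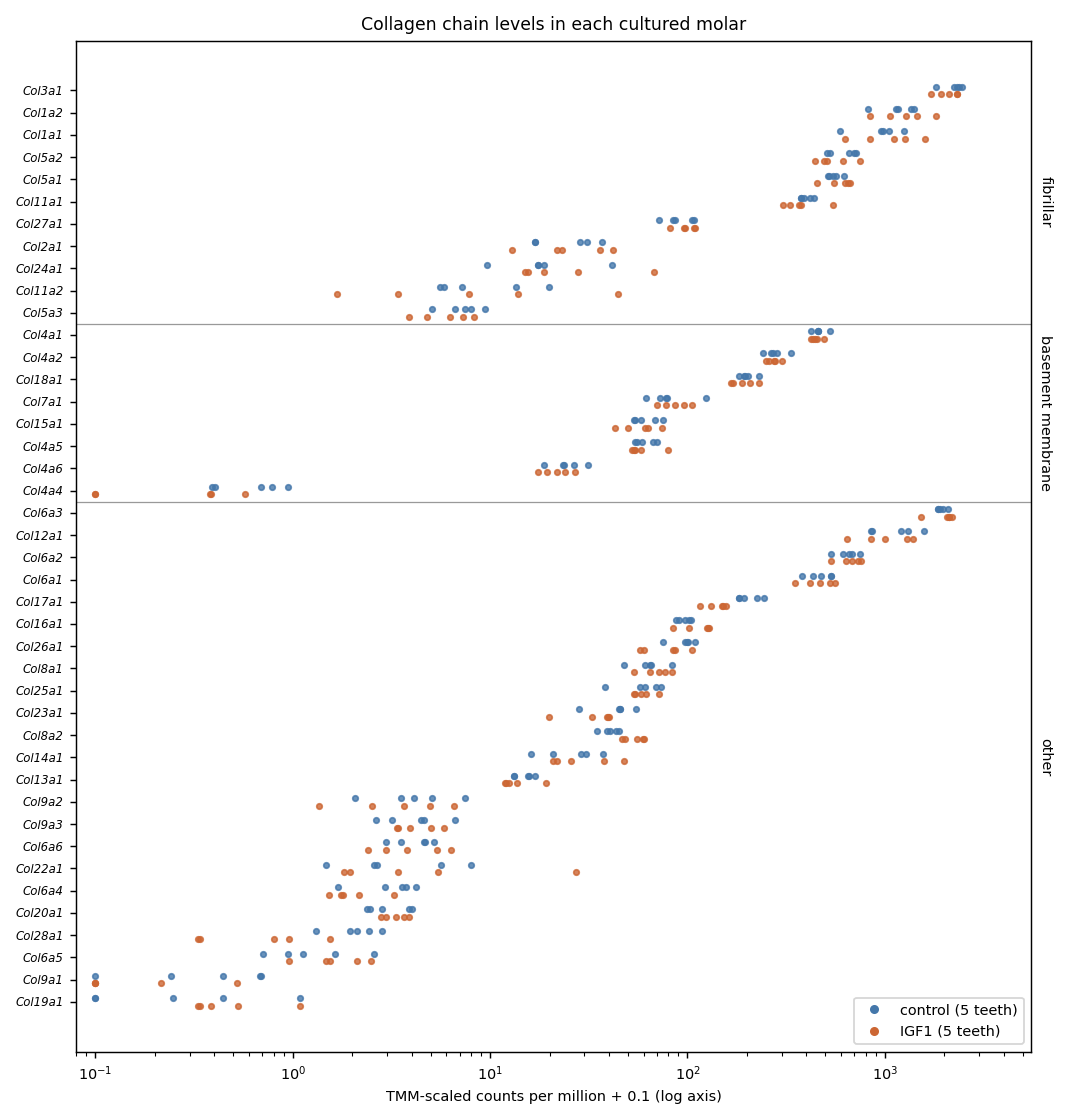
Level of each of the 42 listed collagen chains in each tooth, as TMM-scaled CPM plus 0.1 on a log axis, ordered by mean control level within class; blue points are the 5 control and orange points the 5 IGF1 teeth. Levels run from under 1 CPM (Col4a4, Col9a1, Col19a1) to about 2240 CPM (mean of Col3a1 in control teeth), and the points of both groups overlap for most chains.

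The first comparison is between IGF1 and control over the whole family. After 6 h of IGF1, 4 of the 39 chains tested were called, or 10.3%, against 11.5% of all genes. All 4 belong to the other types. Col8a2 rose, and Col17a1, Col23a1 and Col28a1 fell. None of the 11 fibrillar and none of the 7 basement membrane chains tested was called by edgeR's quasi-likelihood test, and none of these 18 had an unadjusted p under 0.05. DESeq2's Wald test and limma-voom also called 0 in both classes. Among the other types 4 of 21 were called (19.0%), 1 higher and 3 lower. An unadjusted p under 0.05 in edgeR's test was found for 7 of the 39 chains, all of the other types. The share of all genes at that threshold is not given here. The CPM ranges of the groups did not overlap for 2 of 39 chains (Col8a2 and Col17a1), against 7.24% of all genes. The log2 difference had the same sign in all 5 embryos for 5 of 39 chains (Col8a2, Col17a1, Col23a1, Col26a1 and Col28a1), against 24.2% of all genes. For calls, ranges without overlap and a shared sign, the shares of the whole family are thus at or below the background. The calls are described as single genes. Without embryo 1 only Col17a1 was called among 38 chains tested, and without embryo 2 or embryo 4 the count was 2.

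Median log2 fold changes were -0.03 over the 39 chains, 0.01 for fibrillar, -0.05 for basement membrane and 0.03 for other chains. Of the 35 chains that were not called, 22 had a 95% interval wholly between -0.5 and 0.5 on the log2 scale and 31 between -1 and 1. All 7 basement membrane chains tested lay within the narrower bounds, as did 7 of the 11 fibrillar chains and 8 of the 17 other chains that were not called. The 4 chains whose interval reached beyond a log2 of 1 in size were Col6a4, Col6a5, Col9a2 and Col22a1, all low in every group.

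**Figure D2:**
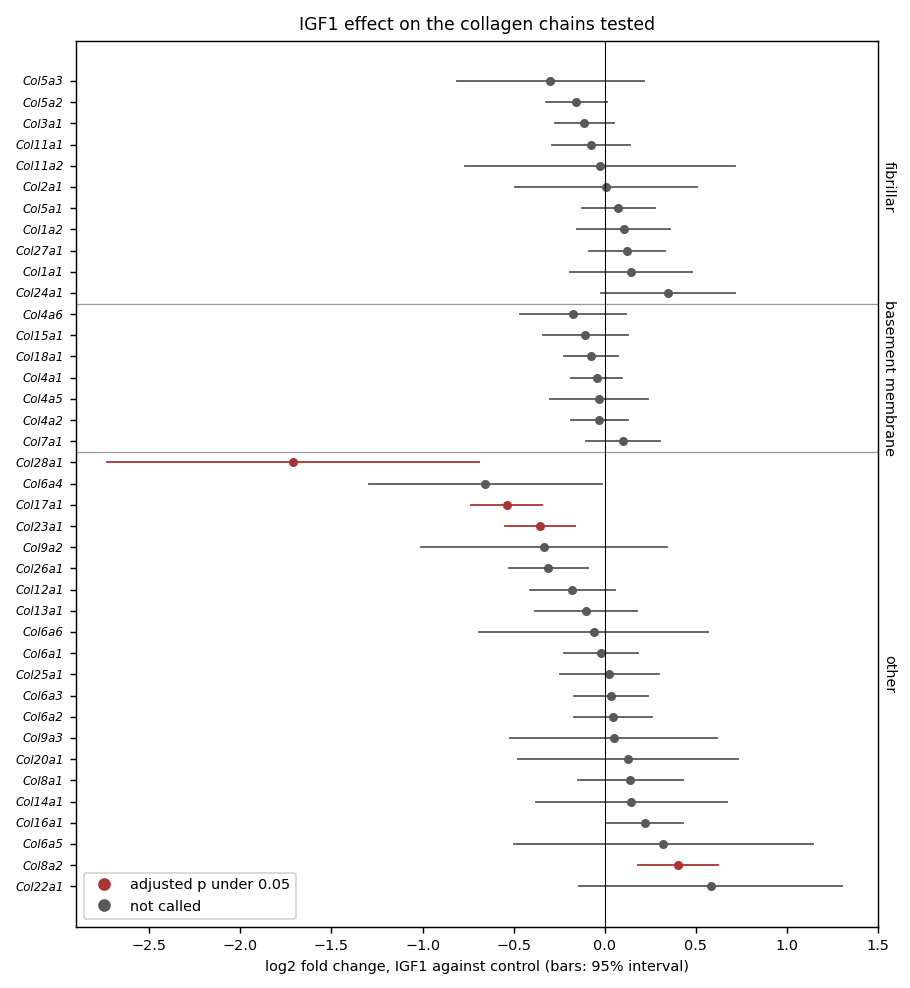
Fitted log2 fold change (IGF1 against control, horizontal axis) of the 39 collagen chains tested, with 95% intervals as bars, grouped by class; red marks an adjusted p under 0.05. The 4 red chains (Col28a1, Col17a1, Col23a1 and Col8a2) are all among the other types, while every fibrillar interval but none of the red ones includes 0.

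Among the fibrillar chains, no member passed the test, and the abundant ones are given first. Col3a1 was at 2240, 2318, 2374, 2457 and 1812 CPM in the control teeth of embryos 1, 2, 3, 4 and 6, and at 2308, 2120, 1920, 2315 and 1707 CPM in their IGF1 teeth. Both groups overlap, and the fitted log2 fold change was -0.11 (SE 0.074, adjusted p = 0.367). Col1a1 was at 1253, 977, 955, 1047 and 591 CPM in control and 1258, 1596, 629, 1115 and 839 CPM in IGF1 teeth. Its IGF1 values span a wider range than its control values, and the fold change was 0.14 (SE 0.15, 95% interval -0.19 to 0.48, adjusted p = 0.602). Col1a2, its partner in the type I trimer, was at 1139, 1362, 1166, 1412 and 826 CPM in control and 1274, 1816, 837, 1461 and 1063 CPM in IGF1 teeth, a log2 fold change of 0.10 (SE 0.12, adjusted p = 0.624). For both type I chains the pairs went up in 4 of 5 embryos and down in embryo 3. Without embryo 2 the fold change of Col1a1 was -0.0013 and that of Col1a2 0.02, and without embryo 3 they were 0.32 (adjusted p = 0.0974) and 0.24 (adjusted p = 0.0842).

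The chains that nucleate and regulate fibrils were not called either. Col5a1 and Col5a2, the regulatory type V chains, had log2 fold changes of 0.07 (SE 0.091) and -0.16 (SE 0.075), with adjusted p = 0.661 and 0.217. Col11a1, a type XI chain, was at 399 ± 27.9 CPM in control and 385 ± 94.0 CPM in IGF1 teeth. Col27a1 was at 90.9 ± 15.3 and 98.1 ± 11.2 CPM. Col5a3, Col11a2 and Col2a1 were low, with fold changes of -0.30, -0.03 and 0.01. The largest value of the class was that of Col24a1, a minor chain known from bone. It was at 9.59, 41.3, 17.4, 18.7 and 17.4 CPM in control and 18.7, 67.6, 15.5, 27.7 and 15.0 CPM in IGF1 teeth. Embryo 2 was the highest in both groups, and the log2 fold change of 0.35 (SE 0.17, adjusted p = 0.217) became 0.22 without it.

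The type IV chains are transcribed in head-to-head pairs. The RefSeq starts of Col4a1 and Col4a2 on chromosome 8 lie 21 bases apart on opposite strands, and the gene bodies overlap there. The windows from 250 bases before to 50 bases after each start (RefSeq, GRCm38.p6) are shown because they share 78 bases, given in capitals and read in opposite directions, 5′ to 3′ on each gene's strand, at chr8:11312777-11313076 (minus strand) and chr8:11312555-11312854 (plus strand).
Col4a1: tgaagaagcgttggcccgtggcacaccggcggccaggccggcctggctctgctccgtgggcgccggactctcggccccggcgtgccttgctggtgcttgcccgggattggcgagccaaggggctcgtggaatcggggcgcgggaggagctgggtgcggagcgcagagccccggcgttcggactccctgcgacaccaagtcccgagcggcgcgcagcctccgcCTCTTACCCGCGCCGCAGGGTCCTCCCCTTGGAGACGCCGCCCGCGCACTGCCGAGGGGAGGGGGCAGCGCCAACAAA
Col4a2: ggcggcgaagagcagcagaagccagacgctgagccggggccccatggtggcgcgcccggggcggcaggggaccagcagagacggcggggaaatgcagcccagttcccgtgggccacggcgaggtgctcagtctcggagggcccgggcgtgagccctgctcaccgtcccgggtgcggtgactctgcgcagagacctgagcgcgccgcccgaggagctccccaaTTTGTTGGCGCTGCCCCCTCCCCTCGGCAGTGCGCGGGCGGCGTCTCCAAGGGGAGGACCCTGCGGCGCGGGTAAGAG
Col4a1 was at 528, 421, 459, 456 and 456 CPM in control and 492, 455, 432, 445 and 420 CPM in IGF1 teeth. Col4a2 was at 336, 242, 265, 270 and 285 CPM in control and 302, 279, 250, 274 and 258 CPM in IGF1 teeth. In both genes the control tooth of embryo 1 is the highest value and the groups overlap. The log2 fold changes were -0.05 (SE 0.064, 95% interval -0.19 to 0.10) and -0.03 (SE 0.071, 95% interval -0.19 to 0.13), with adjusted p = 0.705 and 0.836. Per kb, the level of Col4a1 over that of Col4a2 was 1.48 ± 0.068 in control and 1.46 ± 0.039 in IGF1 teeth.

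Col4a5 and Col4a6, the X-linked pair, stood at lower levels. Col4a5 was at 69.9, 66.5, 55.4, 59.0 and 54.4 CPM in control and 53.7, 52.3, 79.5, 54.4 and 58.3 CPM in IGF1 teeth, with the IGF1 tooth of embryo 3 above all others. The log2 fold change was -0.03 (SE 0.12, adjusted p = 0.910) and without embryo 3 it was -0.18. Col4a6 was at 31.2, 23.3, 23.6, 26.5 and 18.7 CPM in control and 26.7, 19.3, 21.6, 17.3 and 23.8 CPM in IGF1 teeth, a fold change of -0.18 (SE 0.13, adjusted p = 0.439). Their starts are 1343 bases apart, so their windows share no base. Of the third pair, Col4a4 had 17 counts in the control and 7 in the IGF1 teeth. Col18a1, the source of endostatin, was at 201 ± 18.3 and 192 ± 26.3 CPM. Col7a1, the anchoring fibril chain, was at 82.9 ± 24.0 and 86.8 ± 14.0 CPM, and Col15a1 at 61.9 ± 9.5 and 58.1 ± 12.2 CPM. None of these 3 was called.

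Col17a1 gave the firmest difference of the family. It encodes the membrane-spanning collagen of hemidesmosomes, by which basal epithelial cells hold on to the basement membrane. Its RefSeq window at chr19:47691993-47692292 (minus strand, GRCm38.p6) is shown because the gene held the smallest adjusted p of all chains, and because it is among the 4 of 37 chain windows with TATAAA on either strand, marked in capitals.
Col17a1: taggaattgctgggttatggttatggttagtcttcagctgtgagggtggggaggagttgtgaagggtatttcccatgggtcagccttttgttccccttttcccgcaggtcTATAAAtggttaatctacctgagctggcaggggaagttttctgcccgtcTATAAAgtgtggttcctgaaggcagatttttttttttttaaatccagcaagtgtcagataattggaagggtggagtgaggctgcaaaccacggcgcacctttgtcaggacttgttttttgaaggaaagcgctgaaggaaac
It was at 243, 182, 181, 226 and 193 CPM in the control teeth of embryos 1, 2, 3, 4 and 6 and at 151, 116, 156, 131 and 149 CPM in their IGF1 teeth. Every control tooth lay above every IGF1 tooth. The log2 fold change was -0.54 (SE 0.088, 95% interval -0.73 to -0.34, adjusted p = 0.0032), so the IGF1 teeth held 68.9% of the control level. Col17a1 was called in all 11 alternative fits, with log2 fold changes from -0.63 to -0.48 and adjusted p up to 0.020. The summed level of the dental epithelium markers was 2164 to 3349 CPM in control and 2416 to 3366 CPM in IGF1 teeth, so these ranges overlap, and of 9 tested 1 was called, Krt5, which rose (log2 fold change 0.43). In whole teeth, fewer cells of a type and less RNA per cell cannot be told apart.

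Col23a1, another membrane-spanning chain, was at 28.1, 45.3, 55.0, 45.3 and 44.7 CPM in control and 19.8, 32.6, 40.0, 39.6 and 38.9 CPM in IGF1 teeth. The groups overlap because embryo 1 was low in both, but each IGF1 tooth lay below the control tooth of its own embryo. The log2 fold change was -0.36 (SE 0.087, 95% interval -0.55 to -0.17, adjusted p = 0.0238). It was called in 6 of 11 alternative fits and lost its call without the embryo term (adjusted p = 0.322), under DESeq2's Wald test (0.060) and without embryo 1 (0.068), 2 (0.077) or 3 (0.057). The other membrane-spanning chains, Col13a1 (14.8 ± 1.6 and 13.7 ± 3.1 CPM) and Col25a1 (59.7 ± 13.7 and 59.8 ± 7.4 CPM), were not called.

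Col8a2 was the chain that rose. It encodes a short chain of the hexagonal type VIII network. Its RefSeq window at chr4:126286544-126286843 (plus strand, GRCm38.p6) is shown as that of the chain called higher, with GGGCGG on either strand in capitals, of which the last pair of matches overlaps.
Col8a2: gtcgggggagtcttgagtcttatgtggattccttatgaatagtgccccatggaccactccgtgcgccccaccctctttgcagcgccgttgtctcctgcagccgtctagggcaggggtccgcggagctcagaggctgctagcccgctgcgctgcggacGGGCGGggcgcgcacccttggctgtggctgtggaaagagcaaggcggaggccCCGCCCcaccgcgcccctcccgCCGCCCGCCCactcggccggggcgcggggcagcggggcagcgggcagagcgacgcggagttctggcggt
Its level was 40.4, 44.6, 43.4, 34.8 and 39.1 CPM in control and 60.0, 55.6, 48.3, 59.3 and 46.3 CPM in IGF1 teeth. The lowest IGF1 tooth lay above the highest control tooth. The log2 fold change was 0.40 (SE 0.10, 95% interval 0.18 to 0.62, adjusted p = 0.0255), or 132% of the control level. It was called in 9 of 11 alternative fits, and not without embryo 1 (adjusted p = 0.084) or embryo 4 (0.101). Its partner Col8a1 was at 64.3 ± 12.7 CPM in control and 69.9 ± 11.6 CPM in IGF1 teeth (log2 fold change 0.14, SE 0.13, adjusted p = 0.548). Embryo 3 had the largest difference in Col8a1, from 47.7 to 83.6 CPM.

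Of the 42 listed chains, 34 matched the promoter table with 37 windows. GGGCGG was found in 62.2% of these windows and in 35.7% of the 32851 windows of all genes. TATAAA was found in 10.8% and 13.6%, CCAAT in 35.1% and 37.4%, and ACGTG or GCGTG in 32.4% and 43.8%, always on either strand and in 300 bases. A match is a description of these letters and not evidence that a factor binds there. Col1a1, Col2a1, Col5a2, Col9a3, Col12a1, Col14a1, Col22a1 and Col26a1 had no window.

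Col28a1, a low chain related to type VI, fell from 2.74, 2.33, 2.004, 1.84 and 1.21 CPM to 1.44, 0.237, 0.229, 0.704 and 0.855 CPM. These are 62 counts in all control teeth and 20 in all IGF1 teeth, with 2 counts each in the IGF1 teeth of embryos 2 and 3. Every IGF1 tooth was below its own control, though the groups overlap. The log2 fold change was -1.71 (SE 0.46, 95% interval -2.73 to -0.69, adjusted p = 0.0367). Of the 8 alternative fits that gave it an adjusted p, it was called in 4, and it was not called with no filter on low counts (adjusted p = 0.079) or without embryo 2 (0.119), 3 (0.093) or 4 (0.090).

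The main type VI chains were not called. Col6a3 was at 1906, 1868, 1971, 2088 and 1866 CPM in control and 2108, 2183, 1524, 2121 and 2066 CPM in IGF1 teeth. It was higher with IGF1 in 4 embryos and lower in embryo 3, and the log2 fold change was 0.03 (SE 0.091, adjusted p = 0.860). Col6a1 was at 531, 381, 472, 531 and 430 CPM in control and 557, 470, 352, 527 and 417 CPM in IGF1 teeth, a fold change of -0.02 (SE 0.093, adjusted p = 0.917). Col6a2 was at 646 ± 81.3 and 668 ± 91.2 CPM. The lower type VI chains Col6a4, Col6a5 and Col6a6 are neighbouring paralogs on chromosome 9 whose shared reads the counting could split. Col6a4 was at 4.11, 1.60, 3.65, 2.83 and 3.48 CPM in control and 3.16, 1.66, 2.06, 1.69 and 1.42 CPM in IGF1 teeth. Its fold change was among the largest of the chains not called, at -0.66 (SE 0.29, adjusted p = 0.177), and the groups overlap. Col6a5 and Col6a6 averaged under 5 CPM in either group.

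None of the 7 FACIT chains tested was called. Col12a1, the abundant one, was at 1161 ± 309 CPM in control and 1036 ± 307 CPM in IGF1 teeth. Col16a1 was at 95.9 ± 7.2 and 113 ± 19.4 CPM, with a log2 fold change of 0.22 (adjusted p = 0.168) that passed the threshold without embryo 3 (0.33, adjusted p = 0.0231). Col14a1 was at 26.7 ± 8.4 and 30.7 ± 11.7 CPM, and Col20a1 at 3.02 ± 0.79 and 3.23 ± 0.45 CPM. Col22a1, a chain of tissue junctions, was at 1.37, 7.87, 2.48, 5.52 and 2.57 CPM in control and 1.72, 27.3, 3.32, 5.35 and 1.85 CPM in IGF1 teeth. The IGF1 tooth of embryo 2 stands far above the rest. The log2 fold change was 0.58 (SE 0.33, adjusted p = 0.295) with it and 0.04 without embryo 2. Col26a1, an unusual secreted chain, was lower in all 5 embryos (95.9 ± 12.6 and 78.8 ± 20.2 CPM, log2 fold change -0.31, adjusted p = 0.0664), and was called where only genes with at least 10 counts in every sample were tested (adjusted p = 0.0423). It is outside the rule for named chains and was chosen after its values were seen, as was Col16a1.

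**Figure D3:**
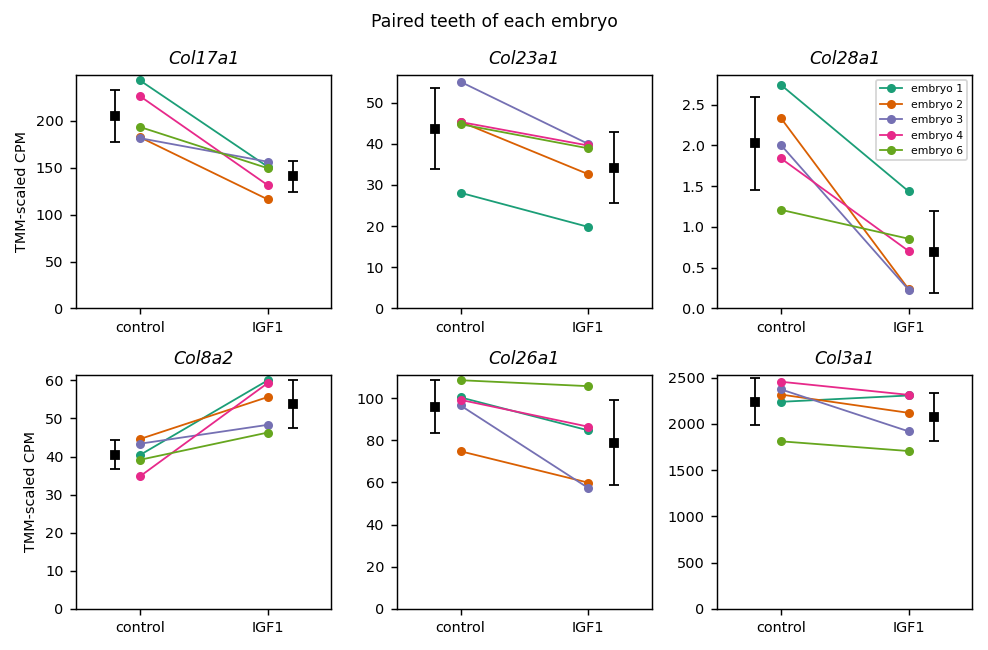
TMM-scaled CPM of 6 chains in the control and the IGF1 tooth of each embryo (coloured lines join teeth of an embryo; black squares and bars are the mean and SD of 5 teeth). Col17a1, Col23a1, Col28a1 and Col26a1 fall and Col8a2 rises along every line, while Col3a1, the most abundant chain, rises along 1 line and falls along 4.

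Over the family, the differences between the paired teeth were not alike in all embryos. With a single tooth per treatment in each embryo, a response to IGF1 and other differences between its teeth cannot be told apart. In embryo 3 the IGF1 tooth was lower than its control for 31 of 39 chains, and for all 11 fibrillar chains, with a median log2 difference of -0.37 for the fibrillar chains. In embryo 2 the difference was positive for 9 of 11 fibrillar chains, with a median of 0.41. The other embryos had fibrillar medians of 0.04 (embryo 1), 0.02 (embryo 4) and -0.08 (embryo 6). Over all genes tested, the median differences of the 5 embryos lay between -0.0084 and 0.016. No fibrillar chain was called when either embryo was left out.

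Bone markers differed between the same teeth. Ibsp, a matrix protein of mineralizing bone, was at 13.0, 177, 23.7, 98.6 and 5.89 CPM in control and 6.89, 494, 4.92, 84.2 and 0.997 CPM in IGF1 teeth. Both teeth of embryo 2 were the highest of their group, followed by those of embryo 4. In embryo 3 the summed level of the 9 bone markers was 651 CPM in the control and 382 CPM in the IGF1 tooth. Over all teeth they summed to 384 to 1256 CPM in control and 294 to 1562 CPM in IGF1 teeth, and none of the 7 tested was called (adjusted p of Sp7 = 0.7102, of Runx2 = 0.140). Bglap and Bglap2, markers of mature osteoblasts, were near 0. Col24a1, Col22a1 and Col11a2 were also highest in embryo 2 in both groups, with Col11a2 at 19.8 CPM in its control and 44.2 CPM in its IGF1 tooth and at 1.57 to 13.7 CPM elsewhere. The part of bone cells in these values was not tested.

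**Figure D4:**
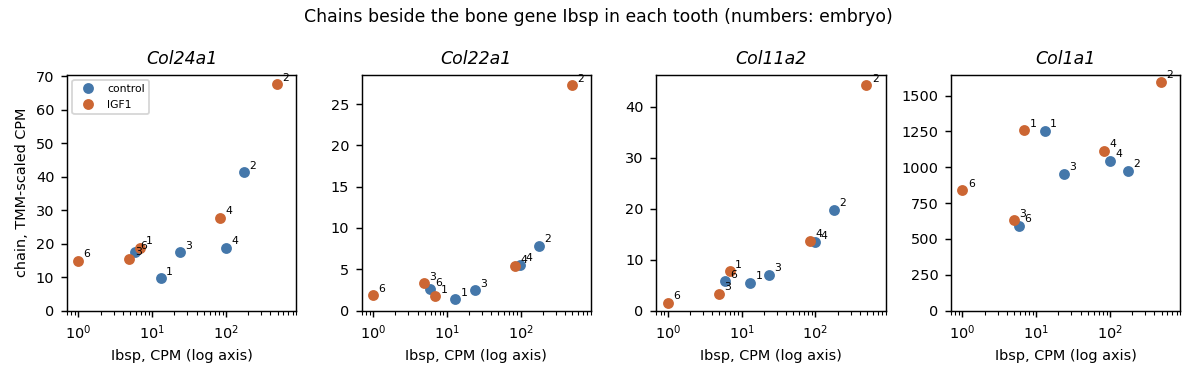
TMM-scaled CPM of Col24a1, Col22a1, Col11a2 and Col1a1 (vertical axes, from 0) against that of the bone gene Ibsp (horizontal log axis) in each tooth; numbers give the embryo and colours the group. The IGF1 tooth of embryo 2 is the upper right point in each panel, with Ibsp at 494 CPM and Col24a1 at 67.6 CPM.

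The next comparison concerns the genes that make, bind and remove collagen, in lists drawn up from textbook roles. The lists were chosen with earlier results of these data known, so their shares are descriptive only. Of 99 genes in 7 lists, 94 are in the table, 91 were tested and 23 were called (25.3%, against 11.5% of all genes), 14 higher and 9 lower. The modifying enzymes and the chaperones and secretion factors held 12 of the 14 higher calls, and none of the 26 genes tested in these lists was called lower.

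Among the enzymes that modify the chains, 6 of 15 rose, where 6.72% of all genes did. The largest changes were in both main catalytic subunits of prolyl 4-hydroxylase, the enzyme that makes the triple helix stable. P4ha2 was at 55.8, 58.5, 37.4, 50.8 and 28.9 CPM in control and 119, 470, 259, 147 and 89.6 CPM in IGF1 teeth, with no overlap and a log2 fold change of 2.06 (SE 0.25, adjusted p = 0.00054). P4ha1 was at 158, 208, 138, 167 and 119 CPM in control and 244, 825, 460, 295 and 198 CPM in IGF1 teeth, higher in every embryo though the groups overlap, with a fold change of 1.197 (SE 0.19, adjusted p = 0.00243). In both genes embryos 2 and 3 had the highest IGF1 teeth. Their shared subunit P4hb rose by 0.60, the lysyl hydroxylase Plod1 by 0.43, the prolyl 3-hydroxylase P3h1 by 0.39, and the galactosyltransferase Colgalt2 by 0.98 on the log2 scale. P4ha1, P4ha2 and P4hb were called in all 11 alternative fits. Plod1, P3h1 and Colgalt2 were not called without the embryo term, nor P3h1 without embryo 1, 2, 4 or 6 and Plod1 without embryo 2 or 4. Colgalt2 was low, at 2.40, 4.52, 5.42, 5.09 and 3.02 CPM in control and 6.03, 12.4, 10.5, 8.31 and 4.27 CPM in IGF1 teeth (SE 0.21, adjusted p = 0.0119, but 0.0706 without the embryo term and 0.0568 without embryo 2). P4ha3, the third catalytic subunit, was at 26.6 ± 3.8 and 27.8 ± 7.0 CPM. Crtap, Ppib, P3h2, P3h3, P3h4, Plod2, Plod3 and Colgalt1 were not called. Of these, P3h2 was at 39.1 ± 4.9 CPM in control and 31.1 ± 3.8 CPM in IGF1 teeth, lower in all 5 embryos. Its groups do not overlap, and its log2 fold change was -0.33 (adjusted p = 0.105).

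The windows of both hydroxylase genes (RefSeq, GRCm38.p6, plus strand, chr10:59323046-59323345 and chr11:54100674-54100973) are printed as those of the largest rises, with ACGTG and GCGTG on either strand in capitals, the letters at the core of the hypoxia response element. P4ha1 held 3 matches and P4ha2 4, and 43.8% of the windows of all genes held a match. P4hb also held 3, and the chain Col6a6, which was not called, held 5.
P4ha1: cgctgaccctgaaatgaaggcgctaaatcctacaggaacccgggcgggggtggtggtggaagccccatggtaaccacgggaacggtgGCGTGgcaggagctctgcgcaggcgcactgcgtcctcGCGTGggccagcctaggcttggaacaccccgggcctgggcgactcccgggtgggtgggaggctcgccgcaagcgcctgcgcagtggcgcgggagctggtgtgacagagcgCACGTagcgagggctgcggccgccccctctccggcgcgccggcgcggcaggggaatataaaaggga
P4ha2: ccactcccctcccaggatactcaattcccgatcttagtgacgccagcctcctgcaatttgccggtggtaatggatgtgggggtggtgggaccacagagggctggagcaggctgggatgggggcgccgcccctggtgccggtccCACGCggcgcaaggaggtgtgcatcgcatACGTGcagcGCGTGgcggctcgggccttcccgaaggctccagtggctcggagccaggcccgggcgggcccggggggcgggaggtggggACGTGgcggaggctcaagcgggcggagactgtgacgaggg
Of 12 other known hypoxia targets tested, 11 rose as well (median log2 fold change 1.68), where 6.72% of all genes did. This list too was chosen with earlier results of these data known. Its summed level was 772 to 1236 CPM in control and 1557 to 5296 CPM in IGF1 teeth. The IGF1 teeth of embryos 2 and 3 were the highest. The part of oxygen supply in the hydroxylase values was not tested.

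Of the chaperones and secretion factors 6 of 11 rose, where 6.72% of all genes did. Serpinh1 (HSP47), the collagen-specific chaperone, went from 1163 ± 67.0 to 1657 ± 313 CPM (log2 fold change 0.49, adjusted p = 0.00956), and embryo 3 had the smallest difference, from 1130 to 1148 CPM. Sec24d, a coat protein of the vesicles that carry procollagen, was at 73.3, 94.2, 77.9, 75.8 and 85.4 CPM in control and 126, 172, 113, 121 and 118 CPM in IGF1 teeth. The groups do not overlap, and the fold change was 0.66 (SE 0.078, adjusted p = 0.000485). Fkbp14 rose by 0.61, Sec13 by 0.41, Mia3 (TANGO1, the procollagen loading receptor) by 0.36 and Sec31a by 0.27. Serpinh1, Sec24d, Fkbp14 and Mia3 were called in all 11 alternative fits, while Sec13 and Sec31a were not called without the embryo term or without embryo 1, 4 or 6, nor Sec31a without embryo 2. Fkbp10, Mia2, Sec23a, Creb3l1 and Creb3l2 were not called.

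Of 12 processing and crosslinking genes tested, Loxl2 rose by 0.44 and Tll1, a procollagen C-proteinase, fell. Tll1 was at 20.2, 32.8, 34.3, 34.7 and 21.2 CPM in control and 18.9, 22.9, 18.4, 23.5 and 10.8 CPM in IGF1 teeth, lower in every embryo, with a fold change of -0.63 (SE 0.13, adjusted p = 0.0099). Neither was called without the embryo term, where the adjusted p of Tll1 was 0.115. Lox and Bmp1 were not called. Of 12 fibril regulators tested only Thbs1 was called, a matrix glycoprotein that binds collagen. It was at 175, 169, 203, 219 and 191 CPM in control and 93.3, 70.5, 66.5, 96.3 and 115 CPM in IGF1 teeth, without overlap, and its fold change was -1.14 (SE 0.11, adjusted p = 0.000153). Fn1, Sparc, Postn, Dcn and Bgn were not called.

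Of 17 partners in the basement membrane 5 fell, where 4.76% of all genes did, and none rose. These were the laminin chains Lamb3, Lama1, Lama2 and Lamb1 and the calcium-binding protein Smoc1, with log2 fold changes of -0.79, -0.56, -0.50, -0.29 and -0.52. Of these 5, Lamb3 and Lama2 were also called without the embryo term. Lamb1 was not called without embryo 1, 4 or 6, nor Smoc1 without embryo 2, 3 or 6. Lamb3, a chain of the laminin under hemidesmosomes, was at 168, 84.7, 107, 120 and 108 CPM in control and 80.7, 38.8, 58.6, 74.5 and 90.7 CPM in IGF1 teeth, lower in every embryo (SE 0.12, adjusted p = 0.00174). The perlecan gene Hspg2, the nidogens Nid1 and Nid2, and Pxdn, which crosslinks type IV collagen, were not called. Of 13 receptors only Cspg4 was called (0.29, higher), in 5 of 11 alternative fits and not without the embryo term, with no filter on low counts or without embryo 1, 2, 4 or 6. The integrin and discoidin receptor genes were not. Of 11 genes for collagen breakdown, Mmp13 and Mmp2 fell by 1.31 and 0.61 on the log2 scale. Mmp13, an interstitial collagenase, was at 9.93, 19.8, 8.25, 7.92 and 5.14 CPM in control and 3.45, 6.76, 5.84, 2.54 and 1.71 CPM in IGF1 teeth (SE 0.22, adjusted p = 0.00357, but 0.0758 without the embryo term). Mmp14, Mmp9 and Ctsk were not called.

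**Figure D5:**
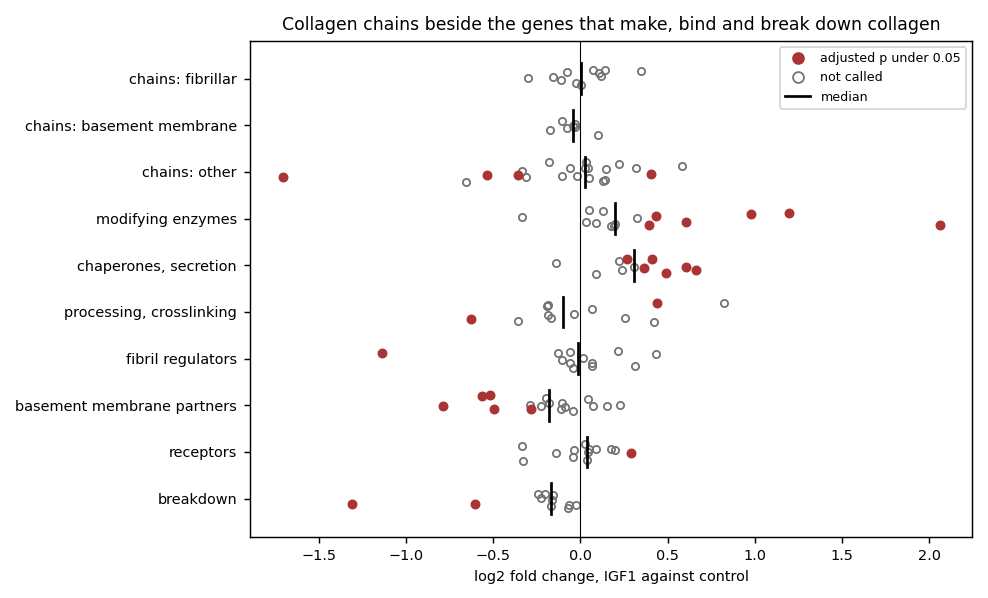
Log2 fold change (IGF1 against control, horizontal axis) of each gene tested in the 3 classes of collagen chains and the 7 pathway lists; filled red points passed the threshold, open points did not, and black bars are medians. Calls among modifying enzymes and chaperones lie to the right of 0, with P4ha2 farthest at 2.06, while the medians of the 3 chain classes lie between -0.05 and 0.03.

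The lists of cell type markers were read in the same fit, beside 4.76% of all genes called lower and 6.72% called higher. Of 9 mesenchymal markers tested Pdgfra, Vim and Pdgfrb fell (log2 fold changes -0.53, -0.42 and -0.32) and none rose, and their summed level was 4183 to 4637 CPM in control and 3215 to 3780 CPM in IGF1 teeth, without overlap. Of 7 endothelial markers 2 fell, Cdh5 and Esam (279 to 365 CPM summed in IGF1 and 351 to 399 CPM in control teeth), and of 5 macrophage markers 1 fell, Csf1r (35.3 to 61.2 against 46.7 to 68.2 CPM). In the cartilage list Sox9 rose (0.43), the only call among 4 tested. Muscle markers summed to 29.9 CPM at most, with none of 2 called, and in the list for glia and neurons Tubb3 rose (0.70), the only call among 3 tested. The part of cell composition in the collagen values was not tested.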

How the data were processed

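RNA was measured in 5 control and 5 IGF1 teeth. The authors deposited a table of estimated counts for each gene, from Salmon 0.99.0 on GRCm38, after FastQC 0.11.8 and Trimmomatic 0.39 per the submitters' processing notes, which also name DESeq2. The values are whole numbers, not normalized, and each of the 18381 genes has at least 10 counts over all samples. The transcript set and strand setting are not given in the sources used here.

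Counts were tested with edgeR 4.0.16 in R 4.3.3 (TMM, filterByExpr, quasi-likelihood test, Benjamini-Hochberg adjustment over 14504 genes), with the embryo as a replicate block since, per the labels, teeth with the same number are from the same embryo. Deviations from the group means correlated at 0.319, 0.208, -0.0389, 0.170 and 0.313 within embryos 1, 2, 3, 4 and 6, and at a median of -0.0463 for teeth of different embryos. SE is the size of the log2 fold change over the square root of F. Differences within an embryo used a prior count of 2. Chi-square per degree of freedom between samples of a group was 4.52 to 18.2, above sampling noise, so every tooth is a sample of its own. The procedure was tested on simulated data.

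The members and lists were chosen with earlier results of these data known. The chains named with full values are those called, the 5 highest per kb in control teeth, the 3 largest changes not called and both partners of the type IV pairs, with the 8 largest pathway calls. Alternatives were the fit without the block, DESeq2 1.42.0 (its size factors and its Wald test), limma-voom 3.58.1, other filters, narrower class limits, and each embryo left out. The promoter windows are from RefSeq (GRCm38.p6), matched by symbol.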

Additional observations from a re-analysis of the deposited data

Results flagged for a closer look

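For the 24 named genes, a tooth was marked where its gap to the nearest other tooth of its group, divided by the range of the group, passed Dixon's 95% critical value for 5 samples. Of 48 groups, 6 were marked, where chance gives about 2.4 (1 in 20) for genes not picked by their values. Col6a4, Col22a1, Col24a1, the chains that were called and the pathway genes were named for their changes in these same teeth. Sec24d is among these pathway genes. That expectation therefore does not hold for any of these genes. Embryo 2 gave 4 of the 6 marks. The IGF1 tooth of embryo 2 stood above the others in Col22a1 (27.3 CPM against 1.72 to 5.35, ratio 0.858), in Col24a1 (67.6 against 15.0 to 27.7, ratio 0.757) and in Sec24d (172 against 113 to 126, ratio 0.779). The control tooth of embryo 2 did so in Col24a1 (41.3 against 9.59 to 18.7, ratio 0.713). In embryo 3 the IGF1 tooth was low in Col6a3 (1524 against 2066 to 2183 CPM, ratio 0.822) and high in Col4a5 (79.5 against 52.3 to 58.3 CPM, ratio 0.781).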

How the results depend on the processing

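Without the replicate block 887 genes were called in place of 1666 (885 of them also with it), 3 collagen chains in place of 4 and 11 pathway genes in place of 23. DESeq2's Wald test called 2 chains, both of the other types, and gave no adjusted p for 3 of the 39. Leaving out an embryo gave 986 (without embryo 4) to 1602 genes (without embryo 3), 1 (without embryo 1) to 4 collagen chains, the same 1 to 4 among other types, and 17 to 28 pathway genes. Without embryo 6, 994 genes were called. Fibrillar and basement membrane chains had 0 calls in every alternative run. With type IV alone and without types XXIV and XXVII the count was also 0. These class limits only leave out chains, so they could give no other count. For the 24 named genes, 238 of 258 values under alternatives kept their direction and side of the threshold, and 15 lost the call in the same direction. These include genes that were never called, and fits without an adjusted p were left out, so the pooled count says little about the calls. Col17a1 was called in 11 of 11 alternatives and Col8a2 in 9 of 11. Col23a1 was called in 6 of 11 and Col28a1 in 4 of 8. Among the named genes, direction changed in 4 chains that were not called, when an embryo was left out. Col6a3 ranged from -0.0154 to 0.13, Col1a1 from -0.0013 to 0.32, Col6a1 from -0.10 to 0.075 and Col4a5 from -0.18 to 0.054. Chains outside the named set changed direction over the alternatives too, among them Col2a1 (-0.16 to 0.33) and Col11a2 (-0.54 to 0.45). The cause of these changes was not tested; leaving out an embryo also leaves fewer samples. Depth limits Col28a1, with 82 counts in all, and the chains that were not tested.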

Other observations

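Beside Col17a1, other genes of the hemidesmosome were looked up after the values of Col17a1 were seen. The integrin gene Itgb4 was at 125 ± 27.1 CPM in control and 86.5 ± 9.2 CPM in IGF1 teeth (edgeR log2 fold change -0.50, adjusted p = 0.0144). Dst, whose epithelial product links the hemidesmosome to keratin, was at 1133 ± 61.0 and 773 ± 18.4 CPM (-0.55, adjusted p = 0.00056), and Dst is also made in other cell types. Itga6 (-0.14), Plec (-0.15), Cd151 (0.25) and Lama3 (-0.18) were not called.

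Per kb, the level of Col5a1 over that of Col5a2, both type V chains, was 1.03 ± 0.15 in control and 1.21 ± 0.21 in IGF1 teeth, and the ratio was higher with IGF1 in 5 of 5 embryos, though neither chain was called. Of 7 ratios between partner or abundant chains this was the only one that moved the same way in all embryos. It was picked after the values were seen and no test was made of it.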
